A study of Homo sapiens with 12 samples.

Results

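The COMMD genes encode 10 proteins that share a carboxy-terminal COMM domain, and all 10, COMMD1 to COMMD10, were measured in MDA-MB-231 cells in which the Argonaute protein AGO2 was silenced, the microRNA miR-145-5p was supplied as a mimic, or both were done. The genes were taken by symbol, and the family was chosen by the measured fall of COMMD8 after AGO2 silencing, so that this fall is described here without a test. The family had 67 of the 233164 probes of the array, and it made up 10 of the 20708 genes to which probes could be assigned. After removal of dim probes 61 of its probes were kept and all 10 genes remained among 18252 genes tested.

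COMMD proteins assemble with one another into a ring that is held by the coiled-coil proteins CCDC22 and CCDC93. This complex joins the retriever trimer of VPS35L, VPS26C and VPS29, together with DENND10, in a larger assembly called Commander, which recycles membrane proteins from endosomes to the cell surface. Single COMMD proteins are also known for their own partners, among them copper transporters and NF-kappaB for COMMD1, and the receptor kinase GRK6 for the pair of COMMD3 and COMMD8.

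MDA-MB-231 is a mesenchymal-like triple-negative breast cancer line, and the study asked how the effect of miR-145-5p on gene expression depends on AGO2, the Argonaute that carries guide RNAs and can cut their targets. The 12 arrays came as 3 biological replicates of 4 groups. The cntrl cells received control oligonucleotides for both the mimic and the siRNA, the mimic145 cells received the miR-145-5p mimic, the sirnaAGO2 cells received Dicer-substrate siRNAs against AGO2, and the sirnaAGO2+mimic145 cells received both. The mimic was used at 5 nM and the siRNA at 500 pM for 72 h. One cell line was used, and silencing was partial. Total RNA was labelled with one dye and hybridized to exon arrays, so that values below are log2 normalized intensities, averaged over the kept probes of a gene. They can be compared between arrays for one gene but not between genes, and in bulk RNA fewer cells expressing a gene cannot be told apart from less RNA per cell.

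The mimic supplies the mature strand given here because every mimic comparison rests on it. The sequence is from RefSeq (GRCh38.p14, chr5:149430661-149430683, plus strand), and capitals mark the seed, bases 2 to 8.
hsa-miR-145-5p: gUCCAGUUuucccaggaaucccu

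The arrays had between 60.5% and 77.3% of their spots well above background. The mesenchymal and triple-negative markers of the line were checked in the cntrl arrays. VIM had 9 of 9 probes, CD44 18 of 18 and EGFR 30 of 31 well above background on every cntrl array. PGR had 0 of 9, ESR1 5 of 14 and CDH1 7 of 16, whereas ERBB2 had 25 of 30 and EPCAM 8 of 10. Of markers of other cells, PTPRC had 4 of 33 and PECAM1 1 of 2, whereas COL1A1 had 38 of 51. Each of the 6 slides carried 2 arrays that shared a replicate number, and no slide held both a silenced and an unsilenced array. Comparisons of the mimic were therefore made within slides, and comparisons of silencing between slides. On each of the 6 slides the array without the mimic was at position 1 and the array with it at position 2. An effect of the mimic therefore cannot be told apart from an effect of array position.

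AGO2 itself was lower in the silenced cells, as a check of the labels. Its values were 9.21, 9.14 and 9.01 on the cntrl arrays and 9.44, 9.36 and 9.39 on the mimic145 arrays. They were 8.35, 8.44 and 8.42 on the sirnaAGO2 arrays and 8.27, 8.35 and 8.41 on the sirnaAGO2+mimic145 arrays. No silenced array reached the level of any array without silencing. Silencing left 61.0% of the control signal without the mimic (log2 difference -0.71, adjusted p 0.00492 by limma) and 48.1% with it (-1.06, adjusted p 0.000783 by limma), and 19 of 19 AGO2 probes were lower in each comparison. Without any 1 of the 3 replicate numbers the calls were lost (adjusted p 0.114 to 0.221 and 0.0516 to 0.0756 by limma), as was the first without sirnaAGO2 replicate 1 (0.0522).

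COMMD8, which with COMMD3 recruits GRK6 to chemokine receptors, was the member with the large fall. Its values were 9.14, 9.20 and 8.87 on the cntrl arrays and 7.28, 7.61 and 7.31 on the sirnaAGO2 arrays. With the mimic they were 9.24, 9.26 and 8.79 without silencing and 7.21, 7.65 and 7.26 with it. The 6 silenced arrays thus lay below the 6 others by more than 1 log2 unit, with no overlap. The group means stood in the order mimic145 (9.10), cntrl (9.07), sirnaAGO2 (7.40) and sirnaAGO2+mimic145 (7.38), in which mimic145 overlapped cntrl and the silenced groups overlapped each other, and the step from cntrl to sirnaAGO2 separated all arrays.

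**Figure D1:**
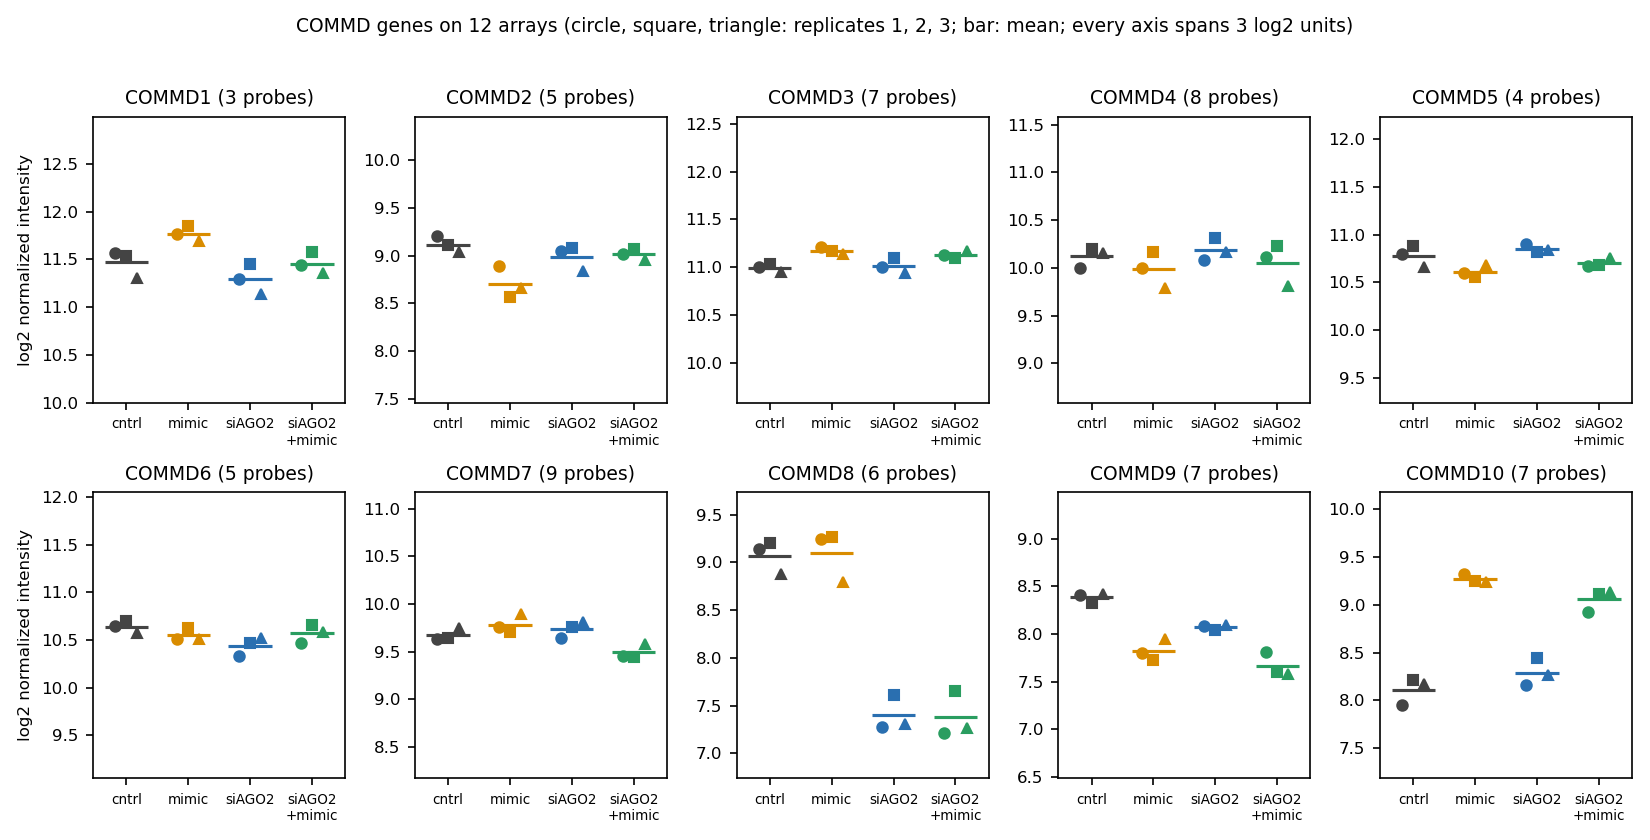
Log2 normalized intensity of the 10 COMMD genes on each array, by group. Points are arrays, the point shape gives the replicate number, the bar is the mean of 3 arrays, and every axis spans 3 log2 units. COMMD8 lies near 9.1 in both groups without silencing and near 7.4 in both silenced groups, and COMMD10 is higher in both groups that received the mimic.

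After AGO2 silencing alone, COMMD8 fell to 31.4% of the cntrl level, a log2 difference of -1.67 ± 0.16 (SD, n = 3 replicate pairs), with -1.86, -1.59 and -1.56 in the pairs. The family was chosen on this contrast, and no test is given for any member in it. COMMD8 stood first of 18252 genes in the size of the fall, followed by POLR3GL at -1.51 and SHOC1 at -1.47, and 2.58% of genes passed limma's test in that comparison. With the slide as a random block 36 genes passed there instead of 471. AGO2 itself stood at place 84. Every silenced array received the siRNAs against AGO2, and effects of these siRNAs other than loss of AGO2 were not tested.

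In sirnaAGO2+mimic145 cells COMMD8 was at 30.3% of its level in mimic145 cells. The log2 difference was -1.72 ± 0.27 (SD, n = 3 replicate pairs), and the pairs gave -2.03, -1.61 and -1.53. The family was chosen on values of all 12 arrays, so that these arrays cannot be taken as independent of the choice, and this fall too is given as a description with no test.

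In this comparison COMMD8 stood at place 4 of 18252 genes by the size of the fall and at place 1 among the 13326 genes with at least 3 kept probes. Among these it was followed by UFC1 at -1.35, SNAPC1 at -1.15, POLR3GL at -1.12 and SLC39A6 at -1.11. Of all genes 96.1% differed by no more than 0.5 log2 units in either direction and 37 were lower by over 1.

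**Figure D2:**
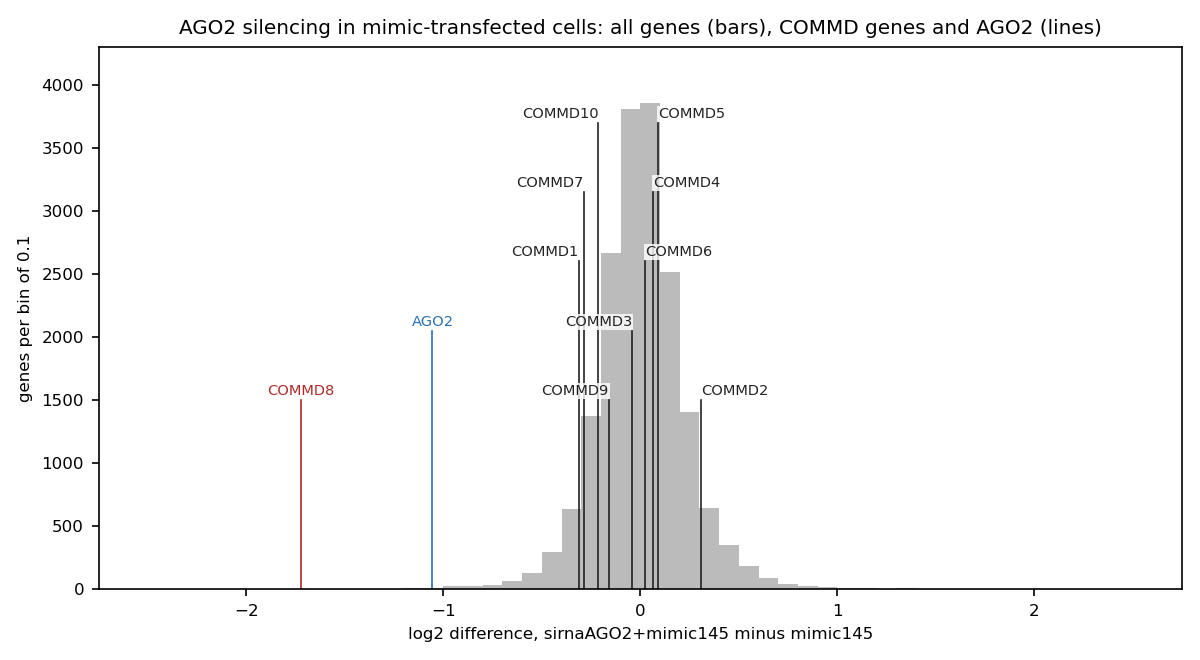
Number of genes per bin of 0.1 of the log2 difference between sirnaAGO2+mimic145 and mimic145 cells, for 18252 genes (bars). Lines mark the 10 COMMD genes and AGO2, and line heights only separate the labels. COMMD8 at -1.72 and AGO2 at -1.06 stand in the left tail, and the other 9 COMMD genes lie between -0.31 and 0.31.

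The fall of COMMD8 was seen at each of its probes, whose positions in the transcript were not analysed here. All 6 probes were lower in both silencing comparisons, with log2 differences of -2.02 to -0.88 without the mimic and with differences of -2.05 to -0.74 with it. The brightest, A_23_P44257, read 12.03, 12.20 and 11.76 on the cntrl arrays and 9.81, 10.41 and 9.69 on the sirnaAGO2 arrays. With the mimic it read 12.34, 12.31 and 11.89 without silencing and 9.80, 10.53 and 10.05 with it. Probe A_37_P023768 was the dimmest, with a mean of 7.02 on the cntrl arrays, and had the smallest fall. It read 7.07 on the sirnaAGO2+mimic145 array of replicate 2, within its range in mimic145 cells, and 6.02 and 6.10 on the other 2 arrays.

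**Figure D3:**
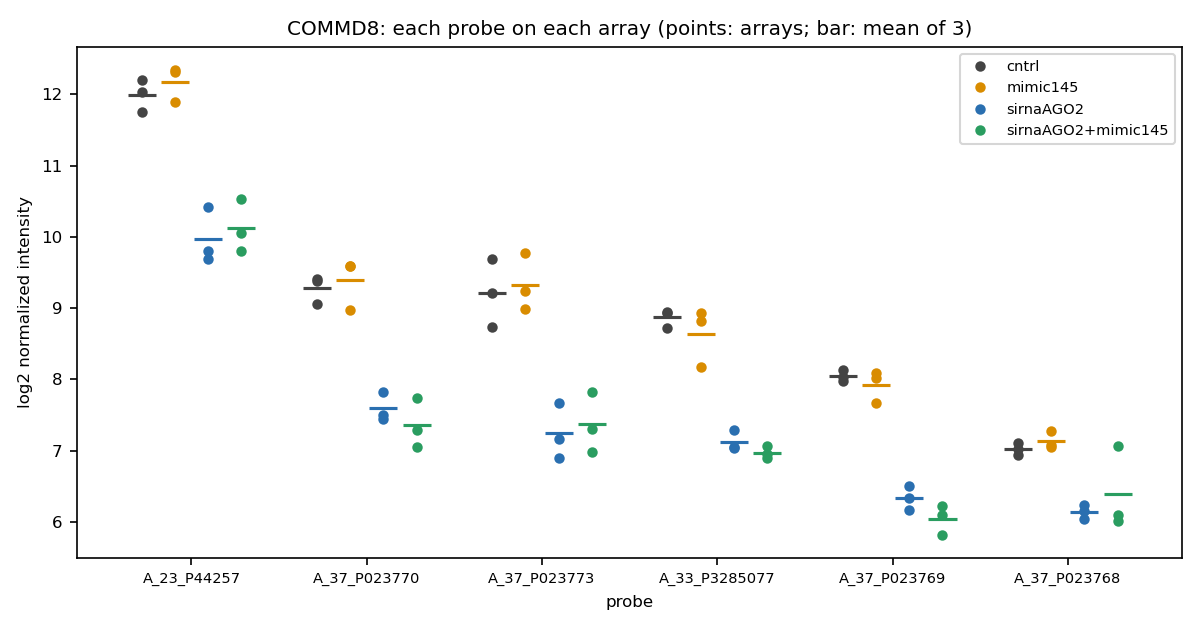
Log2 normalized intensity of each of the 6 COMMD8 probes on each array, with probes ordered by their cntrl mean. Points are arrays, colours are groups and bars are means of 3 arrays. At each probe both silenced groups have lower means than both groups without silencing, and the dimmest probe shows the smallest step, -0.88 without the mimic and -0.74 with it.

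The mimic moved COMMD8 little beside the silencing. The log2 difference was 0.03 ± 0.10 (SD, n = 3 pairs) in control cells and -0.03 ± 0.06 in silenced cells. These values share arrays with the contrast that chose the gene, and no test is given for them.

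Other genes followed COMMD8 across the 12 arrays. Among genes with at least 3 kept probes, the highest Pearson correlations with COMMD8 were those of SNAPC1 (0.993), a subunit of the complex that activates small nuclear RNA genes, POLR3GL (0.972), an RNA polymerase III subunit, DNAAF2 (0.967), ELOA (0.966) and CHPT1 (0.963). AGO2 came next with 0.960. ZHX3 (-0.962), MTMR4 (-0.942) and PRKCE (-0.933) had the lowest. The 12 points fall in 2 sets with and without silencing, so each correlation restates that step, and it is given as a description. SNAPC1 was lower by 1.26 without the mimic and by 1.15 with it, and ELOA by 0.34 and 0.43.

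The other 9 members moved little after AGO2 silencing. Without the mimic their log2 differences ran from -0.31 for COMMD9 to 0.18 for COMMD10, with a median of all genes of -0.03. Of these 9, COMMD9 at -0.31 and COMMD6 at -0.20 had silenced arrays wholly below the cntrl arrays, as did 10.6% of all genes (8.48% had them wholly above). COMMD6 is a short member described as an inhibitor of NF-kappaB.

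In cells with the mimic, 2 of the 9 members other than COMMD8 passed the test, COMMD1 and COMMD7, both lower after silencing, where 4.31% of all genes passed, 2.44% lower and 1.86% higher. With the slide as a random block 90 genes passed there instead of 786. At an unadjusted limma p under 0.05 there were 4 of the 9, and 3928 of 18252 genes. The median of the 9 was -0.04 and that of all genes 0.00081.

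COMMD1, which takes part in copper export and in the turnover of the NF-kappaB subunit RELA, had 11.76, 11.85 and 11.69 on the mimic145 arrays and 11.44, 11.57 and 11.35 on the sirnaAGO2+mimic145 arrays. The groups did not overlap, and the log2 difference was -0.31 (adjusted p 0.0337 by limma). COMMD7, described as a regulator of NF-kappaB, had 9.76, 9.70 and 9.89 on the mimic145 arrays and 9.46, 9.45 and 9.58 on the sirnaAGO2+mimic145 arrays. These did not overlap either (-0.29, adjusted p 0.0336 by limma). The calls of COMMD1 and COMMD7 passed in 8 and 5 of 25 other limma fits. They were lost without any 1 of the 3 replicate numbers (adjusted p 0.171 to 0.281 and 0.177 to 0.3005 by limma), without most single arrays, with no replicate block (adjusted p 0.261 and 0.197 by limma) and with the slide as a random block (0.240 and 0.192). In COMMD7 a dim probe, A_37_P462614, differed by -0.88 and was well above background on 7 of 12 arrays. With probes restricted to those detected on each of the 12 arrays COMMD7 was at -0.16 (adjusted p 0.113 by limma), and with normexp at -0.14 (0.104).

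Of the rest, COMMD2 was at 0.31 (adjusted p 0.0743 by limma) and COMMD10 at -0.21 (adjusted p 0.177), each with groups that did not overlap. COMMD2 was at 0.15 with probes restricted to those detected on each of the 12 arrays. Of the members other than COMMD8, COMMD1, COMMD7 and COMMD10 were wholly lower and COMMD2 wholly higher in this comparison, as were 8.56% and 6.22% of all genes. COMMD9, which had differed by -0.31 without the mimic, differed by -0.16 with it (adjusted p 0.263 by limma), and its groups overlapped. COMMD3, COMMD4, COMMD5 and COMMD6 lay between -0.04 and 0.09, with 95% confidence intervals within -0.19 to 0.28. The readthrough transcript COMMD3-BMI1, counted apart from COMMD3, was at -0.47 (adjusted p 0.0579 by limma). Its groups did not overlap, and all 7 kept probes were lower. Without the mimic it was at -0.05 (adjusted p 0.845 by limma). BMI1 itself, on 2 kept probes, was at -0.24 in cells with the mimic (adjusted p 0.273 by limma), with groups that overlapped. Probes named for the readthrough may also detect COMMD3 or BMI1 RNA.

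With the mimic, COMMD10 rose and COMMD9 fell in both arms. In control cells 4 of the 9 members other than COMMD8 passed, where 22.6% of all genes passed, 11% lower and 11.6% higher. COMMD10 and COMMD1 were higher and COMMD9 and COMMD2 were lower. At an unadjusted limma p under 0.05 there were 5, and 6461 of 18252 genes. The additional member was COMMD3 at 0.18 (adjusted p 0.0758 by limma). The median of the 9 was -0.09 and that of all genes 0.01.

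COMMD10 rose most. It had 7.95, 8.21 and 8.17 on the cntrl arrays and 9.32, 9.25 and 9.24 on the mimic145 arrays. In silenced cells it had 8.16, 8.45 and 8.26 without the mimic and 8.93, 9.11 and 9.13 with it. The 6 arrays with the mimic lay above the 6 without it. Groups wholly above were found for 14.9% of all genes in control cells and 13.9% in silenced cells. In control cells the mimic raised COMMD10 to 224% (log2 difference 1.16, 95% confidence interval 0.97 to 1.35, adjusted p 9.35e-05 by limma), and in silenced cells to 170% (0.77, 0.58 to 0.95, adjusted p 0.00465 by limma).

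The rise of COMMD10 was seen at 7 of 7 probes in both arms. In control cells all 7 passed limma's test over all probes, with differences from 0.52 to 1.65, where 8.1% of probes were called higher. In silenced cells 6 of 7 passed, with differences from 0.52 to 1.10, where 0.981% were called higher. The call in silenced cells was lost without replicate 2 (0.82, adjusted p 0.0941 by limma), without replicate 3 (0.72, 0.162) and with only the 6 arrays compared (0.0897).

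COMMD9, known for its part in the traffic of Notch receptors, fell. It had 8.40, 8.33 and 8.42 on the cntrl arrays and 7.80, 7.73 and 7.94 on the mimic145 arrays. In silenced cells it had 8.08, 8.04 and 8.09 without the mimic and 7.81, 7.60 and 7.58 with it. Within each arm the groups did not overlap, with groups wholly below for 13.5% and 10.2% of all genes. The mimic left 67.9% of COMMD9 in control cells (-0.56, 95% confidence interval -0.73 to -0.39, adjusted p 0.00132 by limma) and 75.3% in silenced cells (-0.41, -0.58 to -0.24, adjusted p 0.0216 by limma). All 7 kept probes were lower in both arms, 5 of them called in control cells, where 7.28% of probes were called lower, and 1 in silenced cells, where 0.891% were. The call in silenced cells passed in 15 of 25 other limma fits. It was lost without any replicate number, any sirnaAGO2 array or sirnaAGO2+mimic145 replicate 2 or 3 (adjusted p 0.0592 to 0.221 by limma), and with no replicate block its adjusted p was 0.0926 by limma.

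**Figure D4:**
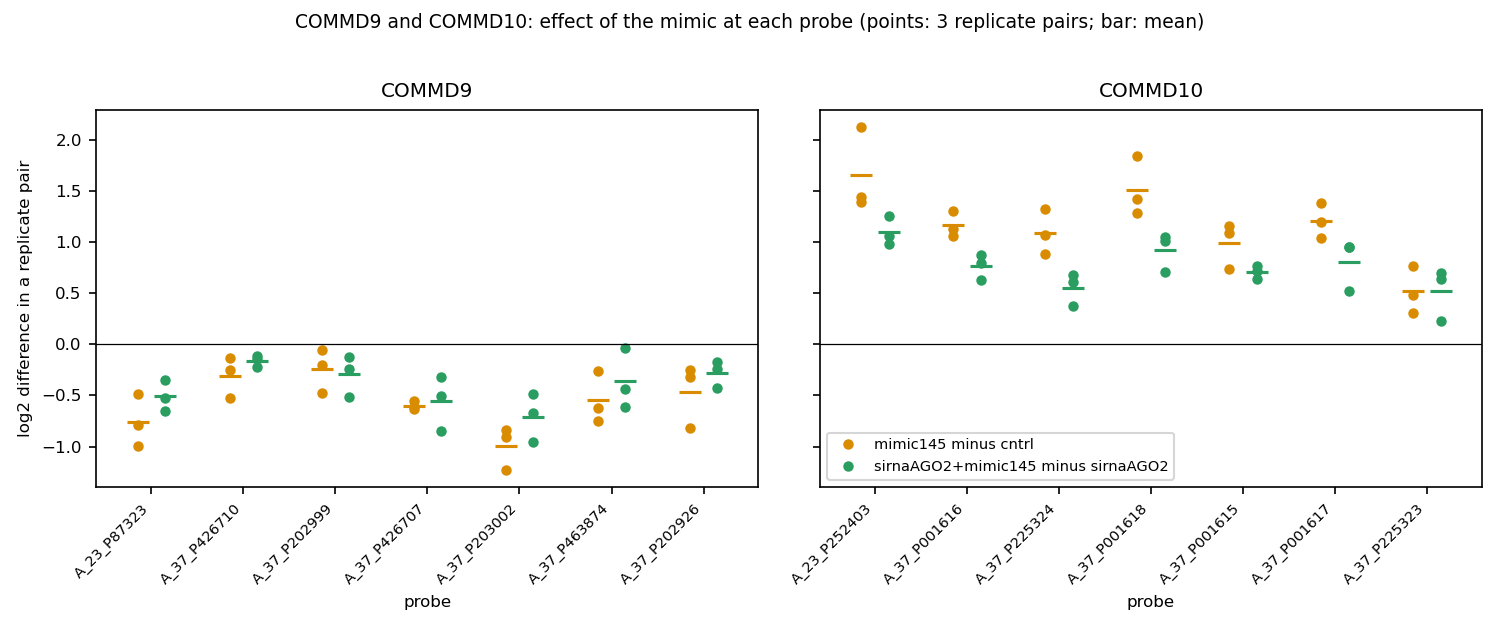
Log2 difference with the mimic at each kept probe of COMMD9 and COMMD10, in control and in silenced cells. Points are the 3 replicate pairs and bars their mean. The 7 COMMD10 probes lie above 0 in every pair and the 7 COMMD9 probes below 0, with means of 0.52 to 1.65 for COMMD10 and -0.99 to -0.25 for COMMD9 in control cells.

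COMMD1 and COMMD2 moved by less. COMMD1 had 11.56, 11.54 and 11.31 on the cntrl arrays, all below the mimic145 arrays given above, and differed by 0.30 (adjusted p 0.0117 by limma). In silenced cells it differed by 0.16 (adjusted p 0.146). COMMD2, a subunit of the ring, had 9.21, 9.11 and 9.04 on the cntrl arrays and 8.89, 8.56 and 8.66 on the mimic145 arrays (-0.41, adjusted p 0.00866 by limma). Part of this rested on probe A_37_P235343, which read 8.68, 6.72 and 8.45 on the mimic145 arrays, low on the array of replicate 2. Restricted to probes detected above background on each of the 12 arrays, COMMD2 still passed, at -0.27. Without any 1 of the 3 replicate numbers both calls were lost (adjusted p 0.0830 to 0.111 for COMMD1 and 0.0551 to 0.0798 for COMMD2 by limma), as was that of COMMD1 without cntrl replicate 2 (0.0515) and with no replicate block (0.116). In silenced cells COMMD2 differed by 0.03 (adjusted p 0.870 by limma).

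In silenced cells the mimic changed 3 of the 9 members, where 7.27% of all genes passed, 3.03% lower and 4.24% higher. COMMD10 was higher, and COMMD9 and COMMD7 lower. With no replicate block there was 1, COMMD10. At an unadjusted limma p under 0.05 there were 4 of the 9, and 5258 of 18252 genes. The median of the 9 was 0.03 and that of all genes 0.02. COMMD7 differed by -0.24 (adjusted p 0.0459 by limma), which rested on 1 dim probe. A_37_P462614 differed by -2.16 and was well above background on 7 of 12 arrays, and with probes restricted to those detected on each of the 12 arrays COMMD7 differed by 0.003. COMMD3, COMMD4, COMMD5 and COMMD6 did not pass in either arm, with differences from -0.17 to 0.18.

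Whether the effect of the mimic depended on AGO2 silencing was tested as a difference of the 2 effects. Of the 9 members 0 passed by limma, where 0.011% of all genes did. At an unadjusted limma p under 0.05 there were 4 of the 9, and 3058 of 18252 genes. The methods' t-test gave 3 of the 9 at an unadjusted p under 0.05, and 1888 of all genes. The rise of COMMD10 was smaller by 0.39 in silenced cells (95% confidence interval -0.66 to -0.13, adjusted p 0.163 by limma), and the fall of COMMD9 by 0.15 (-0.10 to 0.39, adjusted p 0.503). These intervals do not show that the effects were alike.

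The partners of the COMMD proteins were taken as 7 lists of 69 genes in all, and all 69 were measured. After silencing, 5 of 69 (7.25%) passed without the mimic, where 2.58% of all genes did, and 2 of 69 (2.9%) with it, where 4.31% did. The mimic changed 24 of 69 (34.8%) in control cells, 9 lower and 15 higher, where 22.6% of all genes passed. It changed 6 of 69 (8.7%) in silenced cells, 4 lower and 2 higher, where 7.27% did. The median of the 69 genes was 0.01 in control cells, as was that of all genes. With arrays left out the counts ran from 0 to 5 after silencing without the mimic and from 0 to 2 with it, and from 9 to 24 with the mimic in control cells (9 without replicate 1, 11 without replicate 3) and 0 to 6 in silenced cells. The first was 0 without any replicate number, cntrl replicate 1 or any sirnaAGO2 array. It was 1 without cntrl replicate 3, and 3 without any mimic145 array or sirnaAGO2+mimic145 replicate 3. The second was 0 in every case except without cntrl replicate 3. The last was 1 or 0 without any replicate number, any sirnaAGO2 array or sirnaAGO2+mimic145 replicate 2 or 3, and 3 without cntrl replicate 1 or 2 or mimic145 replicate 1. With no replicate block 1, 0, 14 and 1 passed. Of the calls in control cells, DENND10, VPS26C, WASHC2A, RELA and GRK6 passed in 25 of 25 other limma fits and the rest in 9 to 24. The calls after silencing passed in 5 to 17 of 25, and those with the mimic in silenced cells in 7 to 22.

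Among the other Commander subunits, DENND10 had the largest change. It had 9.97, 9.90 and 9.99 on the cntrl arrays and 8.64, 8.76 and 8.72 on the mimic145 arrays. In silenced cells it had 9.72, 9.74 and 9.76 without the mimic and 8.70, 8.63 and 8.85 with it. The 6 arrays with the mimic lay below the 6 without it. The mimic left 42.1% in control cells (-1.25, adjusted p 3.22e-05 by limma) and 49.5% in silenced cells (-1.01, adjusted p 0.000769 by limma).

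In control cells 4 of the 6 partners passed, where 22.6% of all genes did. Beside DENND10, the retriever subunit VPS26C was lower by 0.50 (adjusted p 0.00137 by limma) and the coiled-coil subunit CCDC93 by 0.39 (0.0153), whereas CCDC22 was higher by 0.25 (0.0393). VPS29 and VPS35L were at -0.01 and 0.15 and did not pass. DENND10 was the 1 partner that passed in silenced cells. After silencing, VPS29 was lower by 0.29 in cells with the mimic (adjusted p 0.0400 by limma) and stood at -0.24 without it (adjusted p 0.0848).

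**Figure D5:**
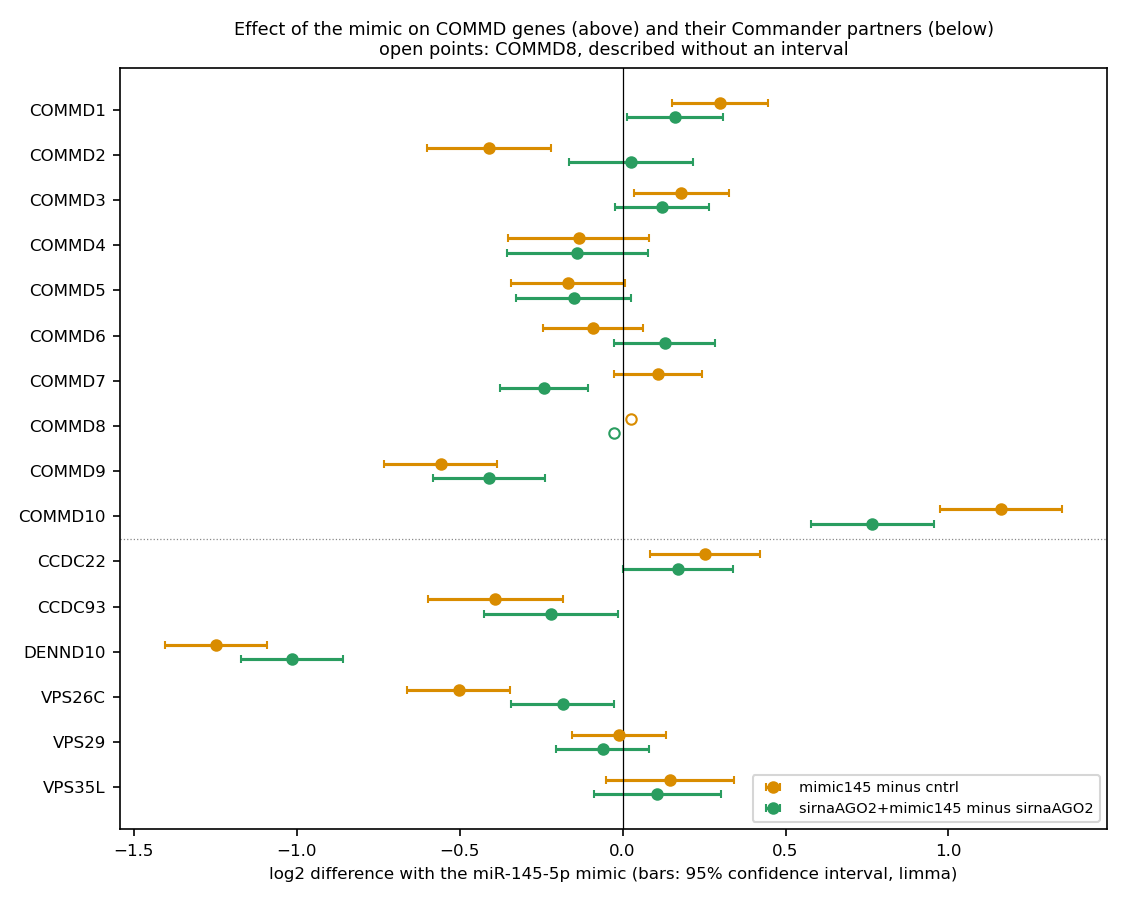
Log2 difference with the mimic for the 10 COMMD genes and their 6 Commander partners, in control and in silenced cells. Bars are 95% confidence intervals of the limma fit, and open points are COMMD8, given without an interval. COMMD10 is higher and DENND10 and COMMD9 are lower in both arms, and the remaining genes lie between -0.50 and 0.30.

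Commander acts at endosomes with the sorting nexins, retromer and the WASH complex. Of these 14 genes the mimic lowered 3 in control cells and raised 1, in all 28.6%, near the 22.6% of all genes. The retromer subunit VPS26A differed by -0.53, WASHC2A by -0.54, WASHC2C by -0.60 and the capping protein CAPZA1 by 0.36. WASHC2A and WASHC2C are near-identical copies that probes may not tell apart. In silenced cells VPS26A (-0.33) and WASHC2C (-0.38) passed. After silencing none of the 14 passed by limma, with 5 at an unadjusted p under 0.05 without the mimic and 3 with it. With the mimic 3928 of 18252 genes did so, and the number of all genes without it is not given here.

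COMMD1 is known to act on copper transporters and on NF-kappaB. Of 9 copper genes, ATP7A, the copper exporter, was lower after silencing (-0.40, adjusted p 0.0434 by limma) and after the mimic (-0.58, 0.00165). SLC31A2 was lower after each treatment as well (-0.48 and -0.35). SLC31A1, the main copper importer, was higher after each (0.52 and 0.62), and the copper chaperone CCS was higher after the mimic (0.29). These values share the cntrl arrays. After silencing alone 33.3% of the 9 passed, where 2.58% of all genes did, and after the mimic 44.4%, where 22.6% did. The silencing calls passed in 5 (ATP7A), 10 (SLC31A1) and 17 (SLC31A2) of 25 other limma fits. None of them held without any 1 of the 3 replicate numbers. Copper genes that passed in the other 2 comparisons numbered 0 by limma, with 0 at an unadjusted p under 0.05 after silencing in cells with the mimic and 3 after the mimic in silenced cells. Of all 18252 genes 3928 and 5258 had such a p in these comparisons. Of 11 NF-kappaB genes, 5 were higher with the mimic in control cells and none lower, where 11.6% of all genes were higher and 11% lower. They were NFKBIB (0.62), RELA (0.53), RELB (0.51), NFKB2 (0.36) and NFKBIE (0.26), where NFKBIB and NFKBIE are inhibitors and the others subunits of the factor. None of the 11 passed by limma in silenced cells, where 4 had an unadjusted p under 0.05, as had 5258 of 18252 genes.

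The pathway of COMMD3 and COMMD8 was listed as GRK6, CXCR4, ARRB1 and ARRB2. In control cells the mimic raised GRK6 by 0.61, the arrestin ARRB2 by 0.56 and ARRB1 by 0.29. Of all genes 11.6% were called higher and 11% lower there. The calls of GRK6, ARRB2 and ARRB1 passed in 25, 21 and 16 of 25 other limma fits. GRK6 had 8.99, 8.95 and 8.94 on the mimic145 arrays and 8.57, 8.72 and 8.60 on the sirnaAGO2+mimic145 arrays, without overlap (-0.33, adjusted p 0.0493 by limma), a call that passed in 6 of 25 other limma fits. Without the mimic GRK6 differed the other way after silencing, by 0.30 in 3 of 3 pairs and without overlap (adjusted p 0.0779 by limma). After silencing, 8.56% of all genes were wholly lower in cells with the mimic and 8.48% wholly higher without it. After silencing alone CXCR4 passed at -0.59, on 1 kept probe with overlapping groups, and without the filter on dim probes it was at 0.07.

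Of 14 cullin ligase genes, the ring protein RNF7 was higher after silencing alone (0.44) and after the mimic in control cells (0.42). SOCS1 was higher after the mimic in both arms (0.45 and 0.31, 1 kept probe), with groups that overlapped in each arm. With the mimic in control cells 14.3% of the 14 passed, where 22.6% of all genes did. The shares were 7.14% after silencing alone, where 2.58% of all genes passed, and 7.14% with the mimic in silenced cells, where 7.27% did. Of 11 cargo and channel genes, the mimic raised NOTCH1 (0.32) and lowered NOTCH2 (-0.26) in control cells. In silenced cells it lowered the integrin ITGB1 (-0.35) and raised SCNN1A (0.31). These made up 18.2% of the list in each arm, where 22.6% of all genes passed in control cells and 7.27% in silenced cells.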

How the data were processed

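RNA of 12 MDA-MB-231 cultures, labelled as biological triplicates, was hybridized to one-colour exon arrays. The authors read the arrays with Feature Extraction (10.7.3.1, per the file headers) and deposited processed signal intensity, corrected for background but not yet normalized. They deposited, too, a table of the authors' quantile normalized log2 values (medians per array 7.04 to 7.06), used here as an alternative. Its values correlated with the processed signal by Spearman's rho of 0.994 to 0.999 across probes. Its centring beyond the quantile step is not given in the sources used here.

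Outlier spots (304 to 462 per array) were left out. Intensities were floored at 1, quantile normalized and log2 transformed, and spots were averaged per probe. Probes were kept when detected above background in 1 or more groups, on each of the 3 arrays. Gene values were means of kept probes, and probes were named by matching their transcripts to RefSeq. No spot was saturated. The number of arrays limits the precision, and the median standard error of a group difference was 0.10. COMMD4, COMMD5 and COMMD6 have pseudogenes, whose RNA these probes may also detect.

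limma 3.58.1 (R 4.3.3) was fitted to all 12 arrays with group and, after the paired test of the study's methods, replicate number as a block. Deviations from the group means correlated by 0.15 to 0.58 in 18 pairs of arrays with the same number. In 36 pairs of arrays with different numbers and groups they correlated by -0.50 to 0.20, so that the ranges overlap. Two-sided p-values were adjusted (Benjamini-Hochberg) over 18252 genes or 142919 probes, and a gene was called at an adjusted p under 0.05. On simulated data with 200 genes lowered by 1, for silencing in cells with the mimic, 88.5% were found among 18252 genes, and 13 unchanged genes were called. The simulated noise was independent between arrays, with no slide effect. The change was larger than that of any member other than COMMD8 in this comparison, so the share found does not apply to them. The alternatives were 75th percentile scaling, normexp with an offset of 50, the authors' table, other probe filters, gene medians, omission of the replicate block, a slide block, fewer arrays, an intensity trend and the methods' t-test. The members and lists were chosen with earlier results of these data known. The test first planned for COMMD8 after silencing in cells with the mimic is not given, since the choice may have used those arrays. The genes named are the members, COMMD3-BMI1, BMI1, AGO2, the Commander partners and list genes that passed. Also named are the 5 most and 3 least correlated with COMMD8. Genes ranked beside COMMD8 were chosen after their values were seen, as were the alternatives for AGO2 and the partner lists, and for single members those beyond scaling, filters, probe summary, block, slide and whole replicates.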

Additional observations from a re-analysis of the deposited data

Results flagged for a closer look

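In 4 members the effect of one treatment had opposite signs in every replicate pair of the 2 arms, and the difference of the effects was tested with limma. None passed. For COMMD2, silencing differed by -0.13 without the mimic and by 0.31 with it, a difference of 0.44 (adjusted p 0.141). Probe A_37_P235343 differed by 0.95 and 1.07 there, and with probes restricted to those detected on each of the 12 arrays the last 2 values were 0.15 and 0.28. For COMMD10, silencing differed by 0.18 without the mimic and by -0.21 with it, a difference of -0.39 (adjusted p 0.163). For COMMD6, the mimic differed by -0.09 in control cells and by 0.13 in silenced cells, a difference of 0.22 (adjusted p 0.294). For COMMD7, the mimic differed by 0.11 in control cells and by -0.24 in silenced cells, a difference of -0.35 (adjusted p 0.110). The second value rested on 1 dim probe, A_37_P462614 (-2.16), which also lowered the first (-1.23). In control cells 8 of 9 kept probes were higher. The first value reached 0.19 among the alternatives and passed in 1 of 25 other limma fits.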

How the results depend on the processing

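The fall of COMMD8 kept its direction in all 27 alternatives of each silencing comparison. Without the mimic it ran from -1.80 to -1.27, the latter with normexp, and with the mimic from -1.82 to -1.28. Without a replicate it ran from -1.82 to -1.57 in cells with the mimic, and it stayed at -1.72 with only the arrays compared and with the methods' t-test. AGO2 at -1.06 lost its call with only the arrays compared (adjusted p 0.199) and by that t-test after Benjamini-Hochberg (0.303), and at -0.71 by the t-test (0.240). With arrays left out AGO2 ran from -0.78 to -0.64 without the mimic and from -1.11 to -0.998 with it, and it was lost without any 1 of the 3 replicate numbers in both, and without the first sirnaAGO2 array in the former.

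Of the members other than COMMD8, COMMD1 and COMMD7 passed after silencing in cells with the mimic. Both calls were lost with the median over probes, with no replicate block and with the slide as a random block. Both were also lost with only the arrays compared and with the adjusted t-test. With arrays left out both were lost in 13 of 15 cases, the exceptions being cntrl replicates 1 and 3. Without cntrl replicate 1 COMMD7 alone was lost. The 4 members called with the mimic in control cells became 2 with only the arrays compared and 0 by the adjusted t-test, and ranged from 2 to 4 with arrays left out (2 without any 1 of the 3 replicate numbers). COMMD9 and COMMD10 passed there in 25 of 25 limma alternatives. The 3 called in silenced cells became 1 with no replicate block and 0 with only the arrays compared and with the adjusted t-test, and ranged from 0 to 2 with arrays left out, 1 or fewer without any sirnaAGO2 array, without sirnaAGO2+mimic145 replicate 2 or 3 and without any replicate number. Of the differences of the mimic effects 0 passed, except 3 by the unadjusted t-test, by which 1888 of 18252 genes passed. The 24 partner genes called in control cells became 14 with no replicate block, 11 with only the arrays compared and 0 by the adjusted t-test, and ranged from 9 to 24 with arrays left out (9 without replicate 1, 11 without replicate 3). Counts also rose in some of the 27 alternatives, which include the unadjusted t-test. The highest were 6 members other than COMMD8 with the mimic in control cells and 4 in silenced cells. For the partner genes the highest were 28 and 14 with the mimic in control and in silenced cells. After silencing they were 16 without the mimic and 10 with it. Without the replicate block the COMMD8 difference stayed at -1.72 in cells with the mimic.

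Signs turned for values near 0 that had not passed. With normexp and the authors' table COMMD6 after silencing in cells with the mimic was at -0.00545 and -0.0069, and COMMD2 with the mimic in silenced cells at -0.0422 and -0.0324. With no filter on dim probes COMMD4 after silencing in cells with the mimic was at -0.0301, and with the mimic in silenced cells COMMD5 was at 0.0684 and COMMD6 at -0.0573. With the median over probes COMMD4 and COMMD6 after silencing in cells with the mimic were at -0.0131 and -0.0199, COMMD6 with the mimic in control cells at 0.00369 and COMMD2 in silenced cells at -0.0351. With arrays left out these values of COMMD2 ran from -0.0179 to 0.0846, of COMMD4 from -0.00189 to 0.155 and of COMMD6 from -0.00179 to 0.0534. Among called values, COMMD7 with the mimic in silenced cells turned to 0.00346 with probes restricted to those detected on each of the 12 arrays, and CXCR4 after silencing alone to 0.0701 with no filter. Scaling by the 75th percentile moved the median of all genes with the mimic in silenced cells from 0.02 to 0.11 and the share of called genes that were higher from 58.3% to 80.1%. The authors' table gave 66.6% there. The cause of the changes was not tested.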
